A study of Mus musculus with 17 samples.

Results

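Chromatin accessibility at the ends of protein-coding genes was examined in nucleus accumbens neurons of mice, in 17 ATAC-seq libraries. In ATAC-seq a transposase inserts sequencing adapters into DNA that is not wrapped around nucleosomes, and clusters of insertions are called as peaks. Overlapping peaks of all libraries on chromosomes 1 to 19 were merged into 277655 regions, of which 176316 were called in at least 2 libraries. A region was taken as a gene-end region when it lay within 1 kb of the 3′ end of a protein-coding gene and more than 3 kb from any transcription start site. This left 3760 gene-end regions, 2.13% of the regions called in at least 2 libraries. They were compared with 124293 other distal regions, which also lay more than 3 kb from any start site, and with 28226 promoter regions within 1 kb of a start site.

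All libraries came from mice labelled C57BL/6 (C57BL/6J in the study's methods) and aged 52 to 54 days. Nuclei carrying NeuN, a nuclear protein of neurons, were sorted from the accumbens of both hemispheres, and each library pooled 3 animals of a group. Cocaine mice received 10 mg/kg intraperitoneally and were killed 1 hour later, while controls received no cocaine and formed the baseline, with no vehicle injection described. Control and cocaine mice were each taken as females in diestrus, as females in proestrus and as males, which gave 6 groups of 3 libraries apart from cocaine males, with 2. Diestrus and proestrus are the low-estrogen and high-estrogen stages of the estrous cycle. The estrous stage of diestrus cocaine library 2 was blank in its labels, and its title placed it in that group. A library thus averages the neurons of several animals, and fewer open cells of a type cannot be told apart from less opening per cell.

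At the end of a gene, RNA polymerase II transcribes the poly(A) signal, the transcript is cut, and the polymerase is released further downstream. Nucleosome-poor stretches near such ends can hold enhancers or binding sites of CTCF, a zinc finger protein at which chromatin loops are anchored. AP-1, a dimer of Fos and Jun proteins, binds distal regulatory elements and is induced in striatal neurons by dopamine and by cocaine. Medium spiny neurons, the GABAergic projection neurons that carry D1 or D2 dopamine receptors, make up most neurons of the accumbens.

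Sequences are shown for gene-end regions whose change after cocaine is described below and that hold an AP-1 pattern, and for 1 that holds a CTCF pattern. The AP-1 pattern searched was TGACTCA on either strand. The CTCF pattern was the core CCA, AG and GGC with 2 free bases between each, on either strand. Each pattern was looked for in the 300 bp around the strongest summit. Capitals mark the pattern, and the plus strand of mm10 (reference sequence GRCm38) is printed from 5′ to 3′. The Wdfy1 stretch is chr1:79701799-79701925, Scg2 is chr1:79432468-79432594, Dguok is chr6:83478929-83479055, Gabra4 is chr5:71568502-71568628, Mmp10 is chr9:7510256-7510284 and Gbe1 is chr16:70568732-70568863. In Scg2 and Dguok the AP-1 pattern lies on the minus strand and reads TGAGTCA on the printed strand, and in Gbe1 the CTCF pattern lies on the minus strand.
Wdfy1, AP-1: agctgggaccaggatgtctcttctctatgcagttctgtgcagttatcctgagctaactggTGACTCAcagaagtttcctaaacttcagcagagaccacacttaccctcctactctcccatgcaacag
Scg2, AP-1: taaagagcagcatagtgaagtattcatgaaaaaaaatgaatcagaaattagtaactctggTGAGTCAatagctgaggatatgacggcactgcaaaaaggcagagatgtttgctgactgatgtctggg
Dguok, AP-1: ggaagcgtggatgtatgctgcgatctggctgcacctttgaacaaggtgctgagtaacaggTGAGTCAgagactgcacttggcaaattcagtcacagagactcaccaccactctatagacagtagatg
Gabra4, AP-1: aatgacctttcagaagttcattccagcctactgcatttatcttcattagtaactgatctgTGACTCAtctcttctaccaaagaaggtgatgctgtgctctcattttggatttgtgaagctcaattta
Mmp10, AP-1: tagagtaattcTGACTCAgaaccttaatg
Gbe1, CTCF: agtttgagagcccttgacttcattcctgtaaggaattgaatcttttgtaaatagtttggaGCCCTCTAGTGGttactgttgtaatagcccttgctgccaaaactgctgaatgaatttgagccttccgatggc
The Wdfy1, Scg2, Dguok and Gabra4 patterns lay in intergenic sequence past the gene end, and that of Gbe1 in an intron. The Mmp10 window held 2 AP-1 matches, of which 1 is shown.

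Of 20807 protein-coding genes on these chromosomes, 14948 had an end with room for such a region. A gene-end region was found at 3256 of them (21.8%), and at 816 (5.46%) one was called in all 17 libraries. Genes with a gene-end region had a median length of 34.8 kb, against 21.3 kb for the other 11692 genes with room. Another gene ended within 2 kb on the opposite strand for 529 genes with a region (16.2%), against 10.6% of those without. Ends on both strands fell at 286 regions (7.61%). The regions thus lay more often at long genes and at pairs of genes that point towards each other. Distance from start sites is part of the rule, so short genes and ends near another start site have less sequence that can count. The part of the rule in both differences was not tested.

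The gene end itself lay inside 1331 regions (35.4%). The strongest summit lay within 1 kb of the end in 2650 regions (70.5%), 1320 of them downstream of the end and 1330 at or upstream of it. Over all gene-end regions the summit fell in intergenic sequence in 42.6%, in an untranslated region in 37.6%, in an intron in 14.1% and in a coding exon in 4.76%. The regions had a median width of 717.5 bp, against 584.0 bp for other distal regions, and 168 (4.47%) were wider than 5 kb, against 0.697% of other distal regions. The widest spanned 28712 bp. In such wide regions the strongest summit can lie far from the gene end that the region reaches.

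**Figure D1:**
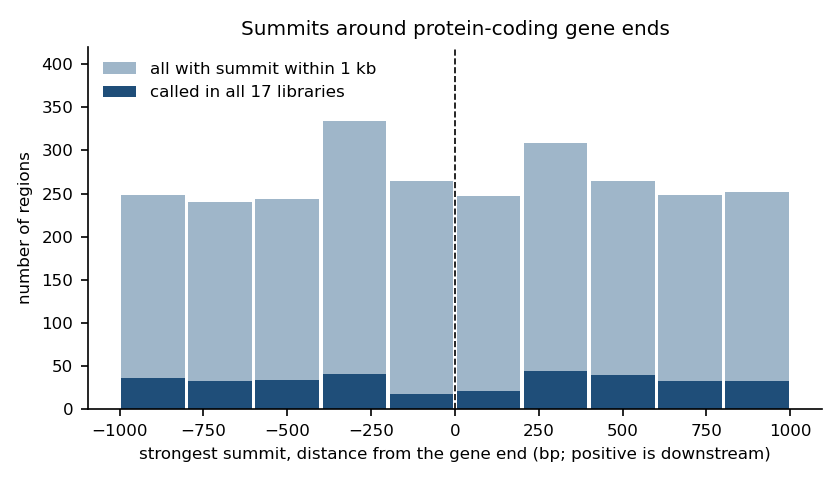
Number of gene-end regions (vertical axis) by distance of the strongest summit from the gene end in bp (horizontal axis, positive is downstream), for the 2650 regions with a summit within 1 kb; the dark part of each bar is the regions called in all 17 libraries. The counts were similar on both sides of the end, 1330 at or upstream and 1320 downstream, and the fullest 200-bp bins, with 334 and 309 summits, lay at 400 to 200 bp before and 200 to 400 bp past the end.

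The hexamer AATAAA, the main poly(A) signal, was counted in the 300 bp around the summit. Of 375 regions with the summit within 150 bp of the end, 64.0% held it on the strand of the gene and 29.6% on the opposite strand. With the summit within 1 kb of the end, the shares were 21.5% and 20.8%. With the summit farther off, they were 13.4% and 16.6%. The sense strand thus held it more often than the antisense strand near the annotated end, and no more often farther off.

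CTCF patterns were found in 282 gene-end regions (7.50%), against 4.52% of other distal regions, 4.97% of promoter regions and 4.82% of all 176316 regions. The share was higher where more libraries called the region, with 3.49% for 2 to 5 libraries, 8.78% for 6 to 16 and 14.8% (106 of 718) for all 17. In other distal regions called in all 17 libraries it was 7.82%. AP-1 patterns went the other way between the classes, with 405 gene-end regions (10.8%) against 13.2% of other distal regions. In regions called by all 17 libraries, the AP-1 shares were 16.3% at gene ends (117 regions) and 19.8% in other distal regions. The cAMP response element TGACGTCA was found in 15 gene-end regions (0.399%), against 0.361% of other distal and 1.95% of promoter regions. GC content around the summit averaged 45.6% at gene ends, 43.1% in other distal and 54.6% in promoter regions, and its part in the pattern counts was not tested. No test was run on these pattern counts, since regions are not replicates.

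**Figure D2:**
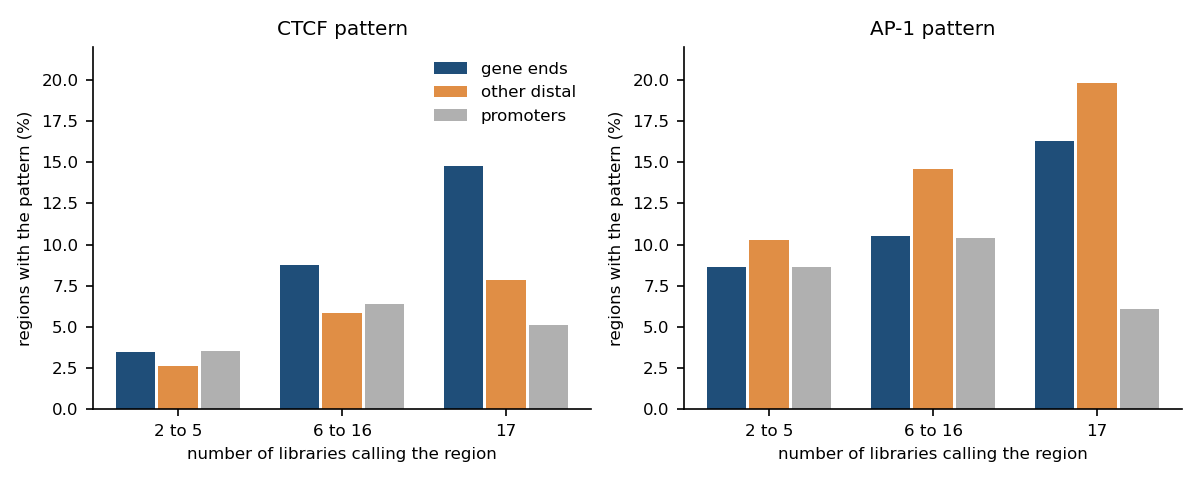
Percent of regions with a CTCF pattern (left) or an AP-1 pattern (right) in the 300 bp around the strongest summit (vertical axes), by the number of libraries that called the region (horizontal axes), for gene ends, other distal regions and promoters. At gene ends the CTCF share went from 3.49% to 14.8%, and in regions called by all 17 libraries it was above the 7.82% of other distal regions, while the AP-1 share was below theirs (16.3% against 19.8%).

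As a check of the sort, promoters of all 6 pan-neuronal markers and all 8 medium spiny neuron markers were called in every library. Of 5 astrocyte markers Gfap was called in 16 libraries, Slc1a3 in 2 and Aqp4, Aldh1l1 and Gjb6 in none. Of 4 oligodendrocyte markers Mbp was called in all 17 and Mog, Mag and Pdgfra in none. Among 5 microglial and 5 endothelial markers, P2ry12 was called in 3 libraries, Kdr in 2 and the others in none. Libraries held 74532 to 155025 peaks, fewest in the male cocaine libraries. Read numbers are not in the peak files, and those in the study's supplement were not used here. Calls were thus not set against depth, and a region without a call may still hold reads. The 3 male control libraries stood apart from the rest at many regions, and the 2 male cocaine libraries had the fewest peaks. Each male result rests on these 5 libraries, and there is no male comparison without them.

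Between 1132 (male cocaine library 2) and 2368 (diestrus cocaine library 1) gene-end regions were called in a library. The mean percent of gene-end regions called was 54.2 ± 5.97 (SD, n = 3) in diestrus controls and 47.5 ± 14.1 (n = 3) in diestrus cocaine. It was 52.3 ± 3.53 (n = 3) in proestrus controls and 49.6 ± 1.20 (n = 3) in proestrus cocaine. In males it was 53.0 ± 2.69 (n = 3) in controls and 33.0 ± 4.04 (n = 2) after cocaine. The male groups did not overlap, while the diestrus cocaine libraries ranged from 35.5% to 63.0% and overlapped their controls. Of other distal regions, male controls called 57.7%, 53.9% and 58.8%, and male cocaine libraries 32.0% and 26.7%. In diestrus these were 44.8%, 49.5% and 53.4% in controls and 56.9%, 41.8% and 35.6% after cocaine. Proestrus controls called 39.8%, 39.1% and 43.8% of them, and proestrus cocaine libraries 49.6%, 42.4% and 48.3%. Over the 3 strata (diestrus, proestrus and males), 9.86 percentage points fewer were called after cocaine (exact permutation test within strata, two-sided, p = 0.0255; adjusted p = 0.102 over 8 tests of this kind). The unadjusted p was not under 0.05 without diestrus control 2 or 3, diestrus cocaine 2 or 3, or any male control. With the same number of strongest peaks taken from each library, the difference was -1.34 points.

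The share of gene-end regions among all regions a library called is relative to its number of peaks. It averaged 2.19% ± 0.0791 (SD, n = 3) in diestrus controls and 2.09% ± 0.137 (n = 3) in diestrus cocaine libraries. In proestrus it was 2.41% ± 0.0571 (n = 3) in controls and 2.15% ± 0.164 (n = 3) after cocaine. In males it was 1.93% ± 0.0148 (n = 3) in controls and 2.11% ± 0.0452 (n = 2) after cocaine. The cocaine libraries lay below their controls in proestrus and above them in males, with no overlap in either. The differences were -0.0993 percentage points in diestrus (exact permutation p = 0.400), -0.259 in proestrus (p = 0.1) and 0.178 in males (p = 0.1), where 0.1 is the smallest p that these group sizes allow. Over strata the difference was -0.0600 points (exact p = 0.366). The effect in males minus that in females was 0.357 points (exact permutation of the sex labels within treatment, p = 0.0442, adjusted p = 0.118), which does not pass the adjustment. Without 1 library, its unadjusted p was above 0.05 for 14 of the 17, at up to 0.119.

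Male controls had a lower share of gene-end regions than female controls by 0.365 points (a difference of -0.365, exact permutation p = 0.0119, adjusted p = 0.0952). Diestrus controls had a share that differed from proestrus controls by -0.222 points (exact p = 0.1, the smallest possible; adjusted p = 0.133). Both of these comparisons were added after the values were seen. The mean GC of called regions ranged from 45.9% to 48.5% over libraries, and its part in these shares was not tested. Within males, the direction of the cocaine minus control difference (0.178 points) depended on how regions were matched. It was -0.207 points when peaks had to cover at least 50% of a region. It was -0.0230 when only regions with the summit within 1 kb of the end counted. The comparison of male with female controls was not repeated under these alternatives.

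**Figure D3:**
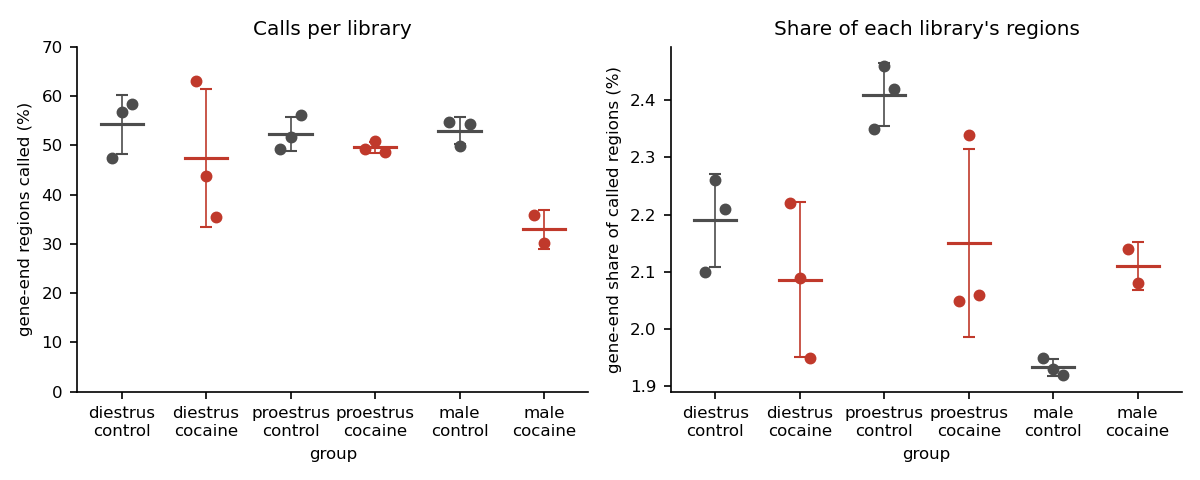
Percent of the 3760 gene-end regions called in each library (left; the vertical axis starts at 0) and the percent of each library's called regions that are gene-end regions (right; the vertical axis does not start at 0), by group (horizontal axes). Points are libraries, the horizontal line is the group mean and the bar is ± 1 SD. The male cocaine libraries called 30.1% and 35.8%, below every control library, and diestrus cocaine library 3 called 35.5%. The male controls had shares of 1.92% to 1.95%, below both male cocaine libraries.

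Gene-end regions were called in more libraries than other distal regions, with 19.1% (718) against 15.3% called in all 17. Among promoter regions the share was 49.4%, and among all regions 20.5%. In the average library 49.2% of gene-end and 45.5% of other distal regions were called, a difference of 3.64 points (exact sign-flip permutation test over libraries, p = 0.0123, higher in 12 of 17 libraries). This direction changed with how regions were matched: the difference was -1.98 points when peaks had to cover at least 50% of the region and -2.84 points (exact p = 0.0381) with the summit within 1 kb of the end. The median rank of fold enrichment within a library differed by 0.380 percentile points (exact p = 0.578), and by -6.59 with the summit within 1 kb of the end. At the borders of the rule, 14.1% of the 597 regions at 750 to 1000 bp from an end were called in all 17 libraries, and 13.7% of the 569 regions at 1000 to 1250 bp, just outside. Of regions at an end, 15.4% of 162 at 3000 to 3250 bp from a start site and 17% of 182 at 2750 to 3000 bp, just outside, were called in all 17.

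Fold enrichment is the height of a peak summit over the background expected there, as the peak caller gave it. The highest median over libraries was at Lars2, mitochondrial leucyl-tRNA synthetase, whose region lay at chr9:123461784-123462358 in an untranslated exon. Its fold enrichment had a median of 85.6 and ranged from 56.5 in male control library 2 to 212 in diestrus control library 2. The next was Znhit1, a subunit of the SRCAP chromatin remodeller that deposits the histone variant H2A.Z, with a median of 42.0 (32.2 to 54.6). C87436 (31.4), Wscd2 (31.2), Fam120a (29.7), Olfr750 (28.4), Dnajb12 (25.4), St3gal2 (24.4), the end shared by Ppp2r2c and Wfs1 (23.2) and Chn1 (22) followed. The regions at Lars2 and Znhit1 were narrow (575 and 859 bp), and the other 8 were 3526 to 26252 bp wide. The study's methods removed peaks in blacklisted regions, a step not repeated here. Whether the Lars2 region lies in a blacklisted stretch was not tested.

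A region was counted as gained when every cocaine library and no control library of a stratum called it, and as lost in the converse case. In diestrus 26 gene-end regions were gained (0.691%), against 0.924% of all regions, and 46 were lost (1.22%), against 1.05%. In proestrus 63 were gained (1.68%), against 2.00%, and 74 lost (1.97%), against 1.36%. In males 52 were gained (1.38%), against 1.38%, and 379 lost (10.1%), against 13.8%. No p-value was given per region, since these group sizes allow none below 0.1. Taking the same number of strongest peaks per library changed the male counts to 102 gained and 117 lost. The counts also depended on single libraries: without diestrus cocaine library 1, 274 were lost in diestrus, and 109, 91 and 73 without diestrus control 1, 2 and 3. Diestrus gains numbered 54, 45, 70 and 41 without diestrus cocaine 1, 2 and 3 and diestrus control 3. Proestrus gains numbered 97, 139, 103 and 95 without proestrus cocaine 1, 2 and 4 and proestrus control 3, and proestrus losses 178, 127, 130 and 134 without proestrus control 1, 2 and 3 and proestrus cocaine 2. Male gains numbered 79 and 120 without male cocaine 1 and 2, and male losses 576 without male control 2.

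Of the 26 regions gained in diestrus, 7 were also gained in proestrus (26.9% and 11.1% of each list), against 289 over all regions (17.7% and 8.21%). They lay at Zswim2, Pcdh18, Leprotl1, Slc45a2, Ppp2r2b and, with 2 neighbouring regions, Arrdc3, and were chosen after their values were seen. Arrdc3 encodes an arrestin-domain adaptor of receptor trafficking. Its region at chr13:80896285-80898442 was called in all 6 female cocaine libraries with fold enrichments of 2.49, 3.40, 2.87, 2.80, 3.74 and 2.72, in male cocaine library 1 with 2.84, and in none of the 9 control libraries. At Pcdh18, a protocadherin adhesion protein, the 6 female cocaine libraries alone called the region, with 4.15, 4.28 and 4.02 in diestrus and 2.60, 3.10 and 4.61 in proestrus. Slc45a2, a transporter of melanosomes, was called with 4.15, 3.52 and 2.64 in diestrus cocaine and 4.21, 3.10 and 4.08 in proestrus cocaine libraries, and otherwise in male control library 3 (3.18). Of the lost regions, 1, at Actr10, a dynactin subunit, was lost in both female stages (2.17% and 1.35% of each list), against 2.70% and 2.08% over all regions.

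Over all 17 libraries, Fisher's exact test (two-sided) was run on calls in 8 cocaine against 9 control libraries, for regions called in 4 to 13 libraries. Of 1460 gene-end regions tested, 0 passed an adjusted p of 0.05 in either direction, as did 0 of all 65507 regions tested. At an unadjusted p under 0.05, 29 (1.99%) were called more often after cocaine, against 3.61% of all regions, and 139 (9.52%) less often, against 9.02%. The Arrdc3 region (7 cocaine and 0 control libraries) and one at Tmem270 (0 and 8) had the smallest p, 0.000411 each (Fisher's exact test, adjusted p = 0.148).

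Other gained and lost gene ends of the female strata had low fold enrichments. Clec12a, a myeloid C-type lectin, and Map9, a microtubule-associated protein, were gained in diestrus with 3.32 to 4.65 and 3.09 to 3.56. Controls of other strata also called them. Clec12a had 2.96 and 2.44 in proestrus controls and 3.31, 4.54 and 2.96 in male controls. Map9 had 2.43, 2.20 and 2.18 in proestrus controls and 3.31 and 3.17 in male controls. In proestrus Gabra4, a GABA-A receptor subunit, was gained with 4.11, 3.21 and 3.98, and was also called in diestrus control library 1, in the 3 diestrus cocaine libraries and in 2 male controls. Gin1 was gained with 3.40, 2.57 and 5.03, and was also called in the diestrus controls (3.61, 3.35 and 2.70). Among lost regions, Isx, an intestinal homeobox factor, had 5.29, 2.46 and 4.05 in diestrus controls, and AI464131, Lcor and Fez2 were lost there too. In proestrus Lrrc8d, a subunit of volume-regulated anion channels, was lost from 4.75, 3.71 and 3.89, along with Zfp853, Mrps25 and the end shared by Gm27029 and Aarsd1.

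Higher values were lost in males. Edil3, a matrix ligand of integrins, had fold enrichments of 12.9, 13.8 and 11 in male controls, no call in male cocaine libraries, and 2.41 to 4.51 in the 8 female libraries that called it. Rtn4r, the Nogo receptor, had 12.1, 9.92 and 12.5 in male controls, no call in male cocaine libraries, and 2.50 to 4.13 in 9 female libraries. Angel1 had 12.1, 10.2 and 11.6, and Ccdc80 7.90, 8.95 and 8.23. At each of these 4 ends the male controls were above all other libraries. The 4 leading male gains, Mucl2, Gm4788, 4932438A13Rik and Gm14412, had 3.37 to 3.84 in the male cocaine libraries. Female controls also called Gm14412, with 3.23, 2.90 and 2.59 in diestrus and 2.85 and 3.13 in proestrus. Diestrus control library 2 called 4932438A13Rik (2.57). Mean GC around the summit was 32.4% in regions gained and 46.0% in those lost in males, 39.6% and 49.9% in proestrus, and 42.1% and 44.1% in diestrus, and its part in the gains and losses was not tested.

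Few gene-end regions were called in every library of 1 group and nowhere else, apart from male controls. There were 85 in male controls (2.26%), against 3.89% of all regions, led by Chia1, an acidic chitinase (7.01, 8.12 and 6.26) and Ehd3, an endosomal recycling ATPase (6.50, 5.92 and 7.68). Male cocaine had 16 (0.426%, against 0.808% of all regions), led by Mucl2, Gm4788 and Rassf9. Diestrus controls had 8 (0.213%, against 0.239%), among them Fez2, Trim17 and Dyrk1a. Proestrus controls had 7 (0.186%, against 0.126%), among them Isg20l2, Plec and Abcg4. Proestrus cocaine had 4 (0.106%, against 0.0431%), among them Vcpip1, Kcns2 and Dimt1, and diestrus cocaine had 0, against 0.0431%.

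For the 718 gene-end regions called in all 17 libraries, fold enrichment was compared with limma, fitted over all 36170 such regions. Since fold enrichment is scaled within a library, values were quantile-normalised first, and each difference is relative to the whole of a library. Before that step the median over all these regions differed between cocaine and control by 0.01 in diestrus, 0.10 in proestrus and -0.48 in males on the log2 scale, and this shift was removed. All values in the following comparisons are normalised fold enrichments unless named otherwise, and log2 differences carry their standard errors. Requiring a call in every library leaves broader regions: these 718 had a median width of 2342 bp and a mean GC of 49.6%.

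In diestrus 15 gene-end regions were higher and 42 lower after cocaine at an adjusted p of 0.05 (2.09% and 5.85%), against 4.59% and 4.50% of all regions. Their median log2 difference was -0.067, against 0.004 over all regions. In proestrus 13 were higher and 26 lower (1.81% and 3.62%), against 2.42% and 2.04%, with a median of -0.077 against -0.001. In males 22 were higher and 32 lower (3.06% and 4.46%), against 3.29% and 4.84%, with a median of 0.022 against 0.014. With median centring in place of quantile normalisation the male counts were 32 higher and 28 lower. Among other distal regions the higher and lower shares were 3.54% and 5.21% (diestrus), 3.73% and 2.27% (proestrus), and 4.05% and 6.92% (males). Lower calls thus outnumbered higher ones at gene ends in every stratum, though for males not with median centring. Among other distal regions lower calls were the more frequent ones except in proestrus. Whether the classes differ was not tested. Gene-end regions that were lower had a mean GC of 52.8% in diestrus and 55.3% in proestrus, against 44.1% and 41.3% of those higher, and the part of GC was not tested.

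These counts depended on single libraries. In diestrus none passed without diestrus cocaine library 2 or 3, while 48 higher and 126 lower passed without library 1. Without diestrus control 1, 2 or 3 the counts were 9 and 23, 2 and 6, and 1 and 6, and without proestrus cocaine 2 there were 24 higher. In proestrus 0 higher and 7 lower passed without proestrus cocaine 1, 0 and 8 without proestrus cocaine 4, and 31 and 55 without proestrus cocaine 2. Without proestrus control 1, 2 or 3 they were 2 and 7, 3 and 6, and 3 and 9. Without diestrus cocaine 1 they were 23 and 44, and without diestrus control 2 there were 8 higher. In males they were 5 and 13 without male cocaine 1, 3 and 7 without male cocaine 2, 11 and 19 without male control 2, and 11 and 20 without male control 3.

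Gene ends higher in both female stages were Scg2, Wdfy1, D3Ertd254e, Dguok and Clint1 (5, which is 33.3% of the diestrus and 38.5% of the proestrus list, against 15.2% and 28.8% over all regions). Of these, D3Ertd254e and Clint1 were chosen after their values were seen. Scg2 encodes secretogranin II, a granin of dense-core vesicles that is cleaved to the peptide secretoneurin. Its region, chr1:79430519-79435191, is 4673 bp wide and runs past the gene end, with the summit 2097 bp downstream. Values were 6.48, 6.20 and 8.02 in diestrus controls and 10.0, 10.9 and 11.5 in diestrus cocaine libraries. In proestrus they were 5.87, 5.5 and 8.34 in controls and 11.5, 9.09 and 10.4 after cocaine. The groups did not overlap in either stage, with log2 differences of 0.65 ± 0.19 (limma adjusted p = 0.0369) and 0.67 ± 0.19 (adjusted p = 0.0461). In males the values were 3.43, 4.73 and 6.60 in controls and 6.98 and 6.79 after cocaine (0.54 ± 0.21, adjusted p = 0.121).

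Wdfy1 encodes a FYVE-domain protein of endosomes, and its region (chr1:79701379-79702107) had the summit 488 bp downstream of the gene end. Diestrus values were 3.63, 3.91 and 3.53 in controls and 4.94, 5.5 and 7.65 after cocaine. Proestrus values were 4.45, 3.06 and 3.53 in controls and 6.68, 5.03 and 5.86 after cocaine. Cocaine libraries lay above all controls in both stages, with 0.68 ± 0.17 in diestrus (limma adjusted p = 0.0197) and 0.68 ± 0.17 in proestrus (adjusted p = 0.0264). In males the difference was 0.26 ± 0.19 (adjusted p = 0.422).

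Dguok, the mitochondrial deoxyguanosine kinase, was higher in all 3 strata. Its values were 5.65, 6.88 and 7.42 in diestrus controls and 9.0, 9.24 and 9.08 after cocaine. They were 5.73, 4.56 and 4.94 in proestrus controls and 7.54, 7.88 and 6.23 after cocaine. In males they were 3.97, 3.84 and 3.44 in controls and 6.49 and 5.98 after cocaine. No cocaine library of a stratum reached down to its controls, with log2 differences of 0.46 ± 0.14, 0.51 ± 0.14 and 0.74 ± 0.16 (limma adjusted p = 0.042, 0.0416 and 0.00527). Clint1, a clathrin adaptor, was also higher in all 3, by 0.51 ± 0.15, 0.67 ± 0.15 and 0.62 ± 0.17 (limma adjusted p = 0.0377, 0.0174 and 0.0221). Without 1 library the Dguok call was lost for 9 of the 17 in diestrus, 10 in proestrus and 1 in males (male cocaine 1), with adjusted p up to 0.156, 0.155 and 0.0773. The Clint1 call was lost for 5, 4 and 4 libraries, all of the stratum tested (up to 0.183, 0.0808 and 0.131).

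Mmp10, the matrix metalloproteinase stromelysin 2, was higher in proestrus, from 2.61, 2.41 and 4.05 to 5.75, 4.19 and 5.86 (0.82 ± 0.19, limma adjusted p = 0.0192). In males it rose from 2.42, 3.29 and 2.86 to 3.86 and 5.79 (0.74 ± 0.21, adjusted p = 0.0318). In diestrus its values were 4.17, 4.31 and 4.58 in controls and 5.87, 6.12 and 6.91 after cocaine (0.53 ± 0.19, adjusted p = 0.0716). The other leading gene ends higher in diestrus were Tmem70, an assembly factor of ATP synthase (0.76 ± 0.19), Minar2 (0.75 ± 0.18) and Gbe1, the glycogen branching enzyme (0.75 ± 0.19). In proestrus they were Paqr8, a membrane progestin receptor (0.80 ± 0.22), and Colec10, a collectin (0.71 ± 0.19). In males they were Gm498 (0.83 ± 0.17), Ubr4, a ubiquitin ligase (0.79 ± 0.22), and Fam151a (0.73 ± 0.17).

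Several of these higher calls were lost when 1 library was left out. In diestrus Tmem70, Minar2, Gbe1, Wdfy1 and Scg2 did not pass without diestrus cocaine 2 or 3, and each also failed without 1 to 3 of the diestrus controls, with adjusted p up to 0.176 (limma). In proestrus Mmp10, Paqr8, Colec10, Wdfy1 and Scg2 did not pass without proestrus cocaine 1 or 4 or without some of the proestrus controls, with adjusted p up to 0.175, and Scg2 also failed without each of 6 libraries of other strata, with median centring and with only regions above the median of mean fold enrichment. In males Gm498 was lost without male cocaine 2 (adjusted p = 0.0750). Ubr4, Mmp10 and Fam151a were lost without 2 or 3 of the male libraries, with adjusted p up to 0.373.

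AP-1 patterns were found in 7 of the 15 regions higher in diestrus (46.7%), in Scg2, Wdfy1, Slc39a12, D3Ertd254e, Usp53, Dguok and Hsbp1l1. Over all regions higher in diestrus the share was 24.4%. In proestrus they were found in 6 of 13 (46.2%), in Scg2, Wdfy1, D3Ertd254e, Aknad1, Dguok and Mmp10, against 43.4% over all regions. In males they were found in 7 of 22 (31.8%), against 20.1%. All regions include promoters, so other distal regions are the closer class. Among regions higher at an unadjusted limma p under 0.05, the AP-1 shares at gene ends were 31.3% in diestrus, 31.6% in proestrus and 19.5% in males. In other distal regions they were 35.2%, 34.7% and 23.4%. Among lower gene-end regions AP-1 patterns were found in 2 of 42 in diestrus, 1 of 26 in proestrus and 3 of 32 in males. These are 4.76%, 3.85% and 9.38%, against 7.55%, 4.74% and 17.3% of all lower regions. Gene-end regions with the pattern (117) had a median log2 difference of 0.04 in diestrus, 0.03 in proestrus and 0.04 in males, and the 601 without it had -0.09, -0.09 and 0.01. In other distal regions with the pattern the medians were 0.12, 0.15 and -0.01. The AP-1 counts are a description of small lists, with no test.

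The lower gene ends in diestrus were led by Gabrd, the delta subunit of extrasynaptic GABA-A receptors. Its region (chr4:155381135-155387028) had values of 13.8, 15.3 and 14 in controls and 11.7, 6.00 and 3.47 after cocaine (-1.20 ± 0.25, limma adjusted p = 0.0120). All cocaine values lay below the controls, but library 1 lay much closer to them than libraries 2 and 3. In proestrus the values were 8.12, 7.62 and 8.52 and then 7.21, 5.62 and 5.62 (-0.40 ± 0.25, adjusted p = 0.341). Arfgef2, an exchange factor for ARF GTPases, fell from 5.5, 6.11 and 6.46 to 4.32, 3.32 and 2.68 (-0.83 ± 0.16, adjusted p = 0.0116). Capn11, a calpain (-0.80 ± 0.18), Lzts1, a postsynaptic leucine zipper protein (-0.79 ± 0.16), and Begain, a binding partner of PSD-95 (-0.77 ± 0.24), followed. Gabrd, Arfgef2, Capn11, Lzts1 and Begain did not pass without diestrus cocaine 2 or 3, with adjusted p up to 0.0957 for Gabrd. Capn11 also failed without diestrus control 2 or 3, and Begain without 9 other libraries (adjusted p up to 0.326).

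In proestrus the end shared by Pcp4 and Igsf5 had the smallest p among gene ends. Pcp4 is a calmodulin-binding protein abundant in striatal neurons. Values were 12.3, 13.6 and 11.8 in proestrus controls and 6.68, 7.01 and 7.80 after cocaine (-0.82 ± 0.13, limma adjusted p = 0.00509). In diestrus they were 10.9, 11.7 and 13.3 in controls and 10.0, 8.12 and 8.34 after cocaine (-0.44 ± 0.13, adjusted p = 0.0437). In males they were 11, 10.1 and 9.17 and then 8.38 and 8.39 (-0.26 ± 0.15, adjusted p = 0.288). The cocaine libraries lay below their controls in each stratum, without overlap. The proestrus call passed without each single library, while the diestrus call was lost without any of 11 libraries, all 3 diestrus controls and diestrus cocaine 2 and 3 among them (adjusted p up to 0.193). Ubxn10 (-0.89 ± 0.20) and Slc4a8, a sodium-driven bicarbonate exchanger (-0.81 ± 0.21), were lower too. They failed without proestrus control 2 (Ubxn10, limma adjusted p = 0.0745) and without any proestrus library except proestrus cocaine 2 (Slc4a8, up to 0.117).

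Gene ends lower in both female stages numbered 6 (14.3% of the diestrus and 23.1% of the proestrus list, against 14.2% and 31.3% over all regions) and were chosen after their values were seen. They were Cygb, cytoglobin, Enpp7, a sphingomyelinase, Dmc1, a meiotic recombinase, Sult4a1, a brain sulfotransferase, Acvrl1, a receptor of the TGF-beta family, and the end of Pcp4 and Igsf5. Cygb was lower by 0.52 ± 0.14 in diestrus (a log2 difference of -0.52) and -0.73 ± 0.14 in proestrus. Acvrl1 had -0.56 ± 0.16 and -0.75 ± 0.16. The diestrus calls of both were lost without diestrus cocaine 2 or 3 or any diestrus control (limma adjusted p up to 0.171 and 0.234). In proestrus Cygb passed without each single library and Acvrl1 failed without proestrus control 1 (0.0701). The female strata have separate controls and cocaine libraries. The difference between the diestrus and proestrus effects was tested in the same limma fit, a contrast added after the values were seen, and 0 gene-end regions passed in either direction, against 0 of all 36170. At an unadjusted p under 0.05, 26 had the larger and 27 the smaller effect in diestrus.

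**Figure D4:**
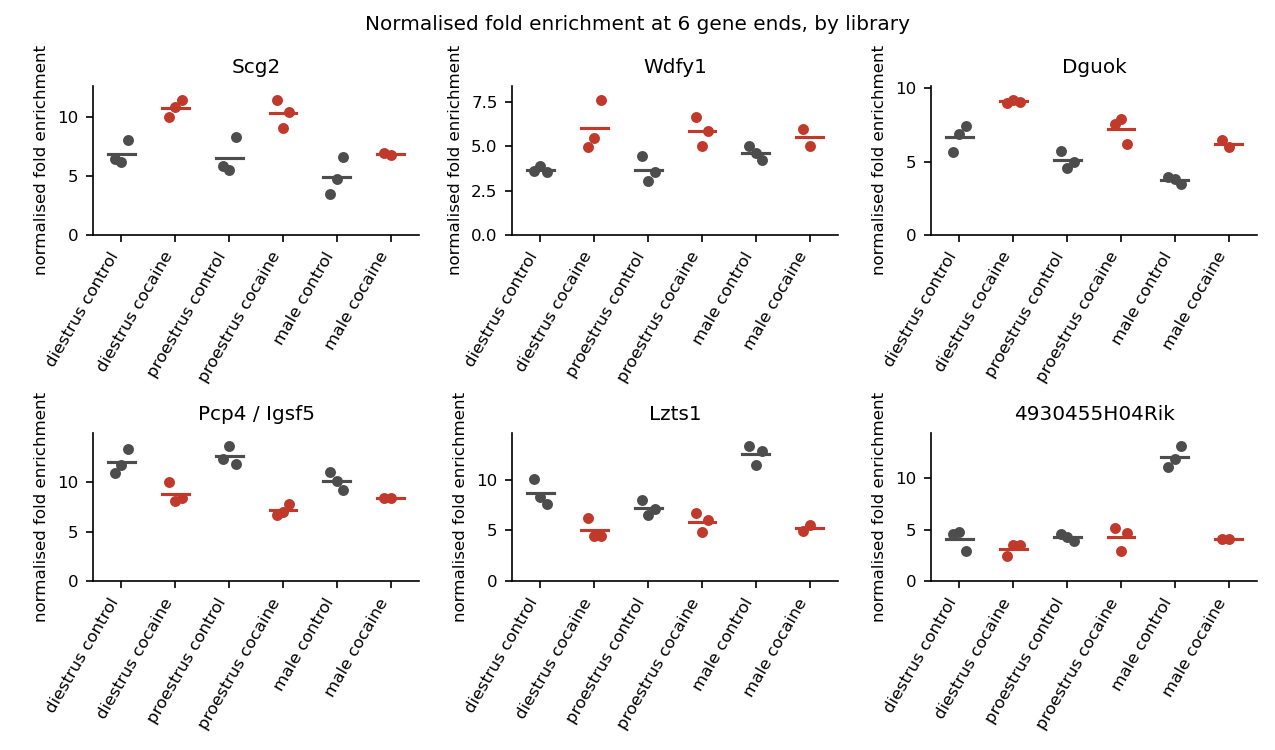
Normalised fold enrichment (vertical axes, starting at 0) in each library by group (horizontal axes) at the ends of Scg2, Wdfy1, Dguok, Pcp4 and Igsf5, Lzts1 and 4930455H04Rik. Points are libraries and lines are group means; at Scg2, Wdfy1 and Dguok the cocaine libraries lie above the controls of the same stratum, at Pcp4 and Igsf5 below, and at 4930455H04Rik the 3 male controls, at 11.1 to 13.1, lie above all other libraries.

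In males the lower gene ends had the largest differences of any comparison after cocaine. At 4930455H04Rik the male controls had 11.1, 11.8 and 13.1, the male cocaine libraries 4.13 and 4.11, and the 12 female libraries 2.43 to 5.12 (-1.54 ± 0.22, limma adjusted p = 0.000180). Lzts1 fell from 13.3, 11.4 and 12.8 to 4.94 and 5.5 (-1.26 ± 0.18, adjusted p = 0.000174). Gas2l1, a linker of actin and microtubules (-1.25 ± 0.21), and Trappc8, a trafficking subunit (-1.09 ± 0.17), were lower too. Gas2l1 did not pass without male cocaine 2 (adjusted p = 0.0515), and 4930455H04Rik, Lzts1 and Trappc8 passed without each single library. At 4930455H04Rik the male cocaine values lay within the range of the female libraries, and the male controls stood apart. At Lzts1, Gas2l1 and Trappc8 the male controls also lay above all other libraries. They were above the female controls by 0.67 ± 0.14, 0.69 ± 0.16 and 0.83 ± 0.13 (limma adjusted p = 0.00165, 0.00429 and 0.000188).

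Male and female controls differed at more gene-end regions than cocaine and control did in any stratum, with 3 libraries set against 6. In male controls 73 gene-end regions were higher and 103 lower than the mean of the female controls (10.2% and 14.3%), against 12.2% and 11.9% of all regions. Their median log2 difference was -0.079, against -0.007 over all regions. Among the higher ones were 4930455H04Rik (1.54 ± 0.17), Eif2d, a translation initiation factor (1.08 ± 0.12), Atp6v1g3, a subunit of the vacuolar proton pump (0.96 ± 0.19), and Kcnk12, a potassium channel (0.84 ± 0.13). The lower ones were led by Tll2, a tolloid-like protease (-1.02 ± 0.14), Cadm1, a synaptic adhesion molecule (-0.90 ± 0.12), Lars2 (-0.88 ± 0.15), Gm498 (-0.81 ± 0.13) and Chchd3, of the mitochondrial cristae complex (-0.81 ± 0.14). These named calls passed without each single library, while the counts were 35 and 43 without male control 2 and 42 and 65 without male control 3.

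Eif2d had 9.43, 9.19 and 8.64 in male controls, 3.17 to 5.23 in female controls, 4.81 to 6.62 in female cocaine libraries and 5.22 and 5.05 in male cocaine libraries. Tll2 had 6.70, 6.59 and 5.86 in male controls, 10.2 to 18.6 in female controls and 8.71 and 9.66 in male cocaine libraries. In both cases the male controls lay outside the range of the 14 other libraries. Over the 73 regions higher in male controls, the median log2 difference between male and female libraries was 0.52 in controls and -0.04 among cocaine libraries, where 33 (45.2%) kept the side. Over the 103 lower, it was -0.48 in controls and -0.00 among cocaine libraries, where 52 (50.5%) kept the side. The values of the cocaine libraries do not enter this difference between controls, although they entered the normalisation, the estimate of spread and the requirement of a call in all 17 libraries. For all regions that passed, the cocaine libraries kept the side for 41.3% of those higher and 48.1% of those lower. Whether the male control libraries reflect sex, or a feature of these 3 libraries, cannot be told apart here.

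**Figure D5:**
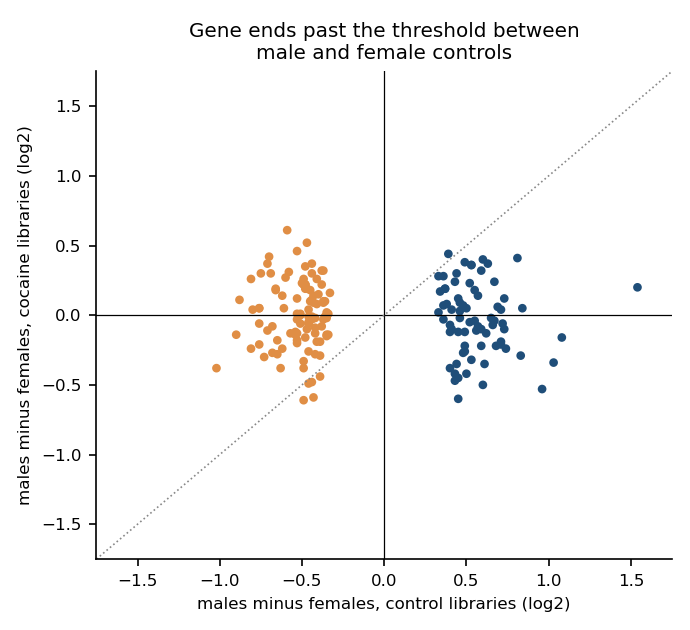
Log2 difference of males minus females in normalised fold enrichment, in control libraries (horizontal axis) and in cocaine libraries (vertical axis), for the 73 higher and 103 lower gene-end regions of the control comparison; the dotted line marks equal differences. The points scatter around 0 on the vertical axis, with medians of -0.04 for the higher and -0.00 for the lower regions.

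The difference between the cocaine effects of males and females was tested in the limma fit, also as an added contrast. It was higher in males at 58 gene-end regions (8.08%), against 8.11% of all regions, and lower at 43 (5.99%), against 8.37%. With median centring the counts were 83 and 38. They were 110 higher without diestrus cocaine 1 and 94 without proestrus cocaine 2. They were 20 and 24 without male control 2, 33 and 26 without male control 3, 15 and 15 without male cocaine 1, and 14 and 11 without male cocaine 2. These contrasts share the male controls with the sex comparison above.

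Diestrus and proestrus controls differed at 3 gene-end regions. The end shared by Fam210b and Aurka, a mitochondrial protein and the mitotic kinase Aurora A, was higher in diestrus (1.17 ± 0.20, limma adjusted p = 0.0177). Values there were 10.9, 8.69 and 8.12 in diestrus controls and 3.55, 4.56 and 4.17 in proestrus controls, without overlap. Fbxo34, an F-box protein (-0.80 ± 0.17, adjusted p = 0.0374), and Slitrk5, a synaptic adhesion protein (-0.65 ± 0.14, adjusted p = 0.0435), were lower. The 1 higher call compares with 0.365% and the 2 lower ones with 0.119% of all regions. Fam210b and Aurka did not pass without diestrus control 1 or 3 or proestrus control 1 (adjusted p up to 0.0935), Fbxo34 without any of the 6 female controls or male control 3 (up to 0.174), and Slitrk5 without 11 of the 17 libraries (up to 0.209).

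Gene-end regions were then grouped by 9 lists of genes that matter in accumbens neurons or serve as contrast. Voltage-gated ion channel genes had one most often, 18 of 37 genes with room (48.6%), against 21.8% of all genes with room, and 9 (24.3%) had one called in all 17 libraries, against 5.46%. The lists were not matched to all genes for gene length, which was greater for genes with a region. Among these channel genes were Cacna1e, Cacna1g, Cacna1i, Cacnb2, Scn3b, Kcna2 and Kcnd3, none of which passed in a cocaine comparison. In male controls Kcna2 was higher (0.41 ± 0.12, limma adjusted p = 0.0145) and Cacna1e lower (-0.35 ± 0.12, adjusted p = 0.0387). The Kcna2 call was lost without male control 1 or 2 (limma adjusted p up to 0.0739), and that of Cacna1e without 7 of the 9 control libraries (up to 0.172). Regions at Kcnc1 and Kcnh1 were lost in males.

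Of 31 glutamate and GABA receptor genes, 10 (32.3%) had a gene-end region, and 2 (6.45%) had one in all 17 libraries, Gabrd and Grm4. Both were lower in diestrus after cocaine, Gabrd as above and Grm4, a presynaptic metabotropic receptor, from 9.06, 10.1 and 11.4 to 8.62, 6.12 and 4.64 (-0.69 ± 0.18, limma adjusted p = 0.0228). Before normalisation Grm4 had 10.8 in diestrus cocaine library 1, within the diestrus controls (8.78 to 11.8). Grm4 was also lower in male than in female controls (-0.75 ± 0.15, adjusted p = 0.00149), also without each single library, while its diestrus call was lost without diestrus control 2 or 3 or diestrus cocaine 2 or 3 (limma adjusted p up to 0.181). Of 30 synaptic vesicle and scaffold genes, 9 (30%) had a region and 3 had one in all 17, Snap25, Cplx2 and Camk2a. Snap25, a SNARE protein of vesicle fusion, had 16.6, 18.4 and 16.8 in male controls and 11.2 and 11.9 after cocaine (-0.58 ± 0.17, adjusted p = 0.0328). The Snap25 region was 11098 bp wide, with the strongest summit 6076 bp past the gene end. Snap25 was higher in male than in female controls (0.68 ± 0.13, adjusted p = 0.000772). The first of these calls was lost without any of the 5 male libraries (limma adjusted p up to 0.204), while the second passed without each single library. Regions at Rims2 and Nlgn1 were lost in males.

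Of 37 medium spiny neuron genes, 12 (32.4%) had a region and 5 (13.5%) one in all 17 libraries. None of these 5 passed in a cocaine comparison, while Rgs9, the striatal regulator of G-protein signalling (-0.34 ± 0.12, limma adjusted p = 0.0476), Gnal, the striatal stimulatory G protein (-0.41 ± 0.11, adjusted p = 0.0101), and Meis2, a homeobox factor (-0.42 ± 0.13, adjusted p = 0.0189), were lower in male controls. Rgs9 did not pass without any of 13 libraries (limma adjusted p up to 0.153), Gnal without male control 1 (0.0716), and Meis2 without male control 1 or 3 (up to 0.0771). The Gnal region also lay at the end of Mppe1. The strongest summits lay 4294 bp (Rgs9), 5929 bp (Gnal) and 7036 bp (Meis2) past the gene end, in regions 20251, 15596 and 11292 bp wide. A region at Isl1, a factor of D1 neurons, was gained in proestrus. Of 27 activity-induced genes, 10 (37.0%) had a region and 3 one in all 17 (Dusp14, Btg2 and Rgs4), of which 0 passed in any comparison. Among them regions at Homer1 and Ier5 were lost in males.

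The other lists held few regions. Of 23 DNA methylation and chromatin genes, 7 (30.4%) had a region, and 2, Kdm5b and Nipbl, had one in all 17 with no call. Of 19 estrogen and steroid signalling genes, 4 (21.1%) had a region (Nr3c1, Fkbp4 and Crhr1 among them), 0 had one in all 17, and Crhr1, the receptor of corticotropin-releasing hormone, lost one in proestrus. Of 8 ribosomal protein genes with room, 1 (Rpl22) had a region. Of 24 glial and vascular genes, 6 (25.0%) had one, with gains at P2ry12 in diestrus and S100b in proestrus, a loss at S100b in males and a higher value at Cx3cr1 in male controls (0.33 ± 0.12, limma adjusted p = 0.0431), which did not pass without any of 9 libraries (up to 0.130). In the nuclei sorted for NeuN, the promoters of P2ry12 and Cx3cr1 were called in 3 and 0 libraries.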

How the data were processed

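ATAC-seq peaks of 17 libraries were analysed. Per the labels and the study's methods, the authors trimmed reads, aligned them to mm10 with BWA-MEM and called peaks per library with MACS2. The submitters' processing notes also name featureCounts and DESeq2, and versions are not given in the sources used here. The deposited fold enrichment is a ratio of summit pileup to local background, scaled within a library, and the deposited −log10 p and q values are those of MACS2, while the deposited peak score, a whole-number form of the q value, was not used. No counts were used here, so limma on fold enrichment stands in place of a count test.

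Overlapping peaks on chromosomes 1 to 19 were merged, and a region's value in a library is its strongest peak's fold enrichment. No blacklist of regions was applied, although the study's methods removed blacklisted peaks. Genes came from GENCODE M21 and bases from GRCm38. Regions called in all 17 libraries were log2-transformed, quantile-normalised and fitted with limma over 6 groups, with Benjamini-Hochberg adjustment over all of them and a threshold of 0.05. Calls were compared with exact permutation tests, Fisher's exact test and complete separation of groups. Groups came from sample titles. Nothing says that libraries of a group are independent beyond their pools of 3 animals, so p-values measure the spread between pools.

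Named genes are the 10 gene ends with the highest median fold enrichment, the 5 largest significant limma differences in each direction and comparison, up to 4 gained and 4 lost ends per stratum and 3 ends called in 1 group alone, ranked by fold enrichment, plus genes of the 9 lists. Gene-end regions and lists were chosen with earlier results of these data known. Other peak thresholds, overlaps, distances, scalings, weights, a replicate block and leaving out each library were tried. The limma fit and the tests on calls were tested on simulated data. Python 3.11.15, numpy 2.4.6, scipy 1.17.1, pandas 2.3.3, R 4.3.3 and limma 3.58.1 were used. Some genes that this rule names are not reported here.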

Additional observations from a re-analysis of the deposited data

Results flagged for a closer look

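Cocaine effects at gene ends that differed between males and females were singled out by a test of the difference itself. The share of gene-end regions among called regions changed by 0.357 percentage points more in males than in females (0.178 against -0.179, exact permutation p = 0.0442, adjusted p = 0.118). In the limma fit the effect on fold enrichment was higher in males at 58 (8.08%, against 8.11% of all regions) and lower at 43 gene-end regions (5.99%, against 8.37%). The limma contrast was added after the values were seen. Both contrasts share the 3 male controls with the comparison of controls.

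Among regions with a higher effect in males, Arfgef2, an exchange factor for ARF GTPases, differed by 1.19 ± 0.22 on the log2 scale (limma adjusted p = 0.00197), with effects of -0.83 in diestrus, -0.38 in proestrus and 0.58 in males. Ubr4, a ubiquitin ligase, differed by 1.12 ± 0.26 (adjusted p = 0.00879), with effects of -0.44, -0.22 and 0.79. Sez6l, a seizure-related membrane protein, differed by 1.08 ± 0.19 (adjusted p = 0.00158), with -0.33, -0.55 and 0.64.

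Atp6v1g3, a subunit of the vacuolar proton pump, had the lowest difference, -1.49 ± 0.29 (limma adjusted p = 0.00315), with effects of 0.51 in diestrus, 0.71 in proestrus and -0.88 in males. At 4930455H04Rik the difference was -1.33 ± 0.26 (limma adjusted p = 0.00311), with -0.37, -0.05 and -1.54. There the male controls lay above all other libraries. Each region named in this section also passed in the limma comparison of male with female controls. The log2 differences there were -0.59 (Arfgef2), -0.70 (Ubr4), -0.71 (Sez6l), 0.96 (Atp6v1g3) and 1.54 (4930455H04Rik). Each was opposite in sign to the difference between effects. Whether these differences between effects belong to sex or to the male control libraries cannot be told apart.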

How the results depend on the processing

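Calls were not adjusted for depth, so a missing call is no measure of absence, and calls depend on the peak threshold. With a −log10 q of at least 5, diestrus gains and losses were 15 and 19, proestrus 27 and 29, and male gains 20. With the same number of strongest peaks per library diestrus gains and losses were again 15 and 19, those in proestrus 27 and 41, and male ones 102 and 117, and the difference in percent called over strata was -1.34. With peaks over at least 50% of a region, 30 were lost in diestrus and 23 gained in males. Regions within 500 bp of an end gave 33 male gains, regions over 5 kb from a start site 29 diestrus and 43 proestrus losses, and summits within 1 kb of the end (an alternative chosen after seeing the data) 16 diestrus gains.

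The share of gene-end regions moved as follows. With 50% coverage it was -0.207 in males (reversed), -0.320 over strata (exact permutation p = 0.00625), and 0.170 for males minus females (p = 0.616). With summits within 1 kb it was -0.0230 in males (reversed), -0.0997 over strata (exact p = 0.0295), and 0.115 for males minus females (p = 0.388). Beyond 5 kb from a start site it was 0.000414 over strata (reversed). Gene-end minus other distal percent called was -1.98 with 50% coverage and -2.84 with near summits. The rank difference was 1.52 with a −log10 q of 5, 1.76 with equal peak numbers, 2.21 with 50% coverage, 1.72 within 500 bp, -0.332 with at least 3 libraries and -6.59 with near summits.

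For limma, counts are given as higher and lower. Near summits gave 6 and 14 for diestrus, 6 and 9 for proestrus, 12 and 10 for males, 28 and 42 between control sexes, 0 lower between control stages, and 28 and 13 for the effect in males minus females. Keeping only regions above the median of mean fold enrichment gave 6 higher in diestrus, 1 and 7 in proestrus, 8 and 14 in males, 28 and 52 between control sexes, 0 lower between stages, and 31 and 17 for males minus females. Array weights gave 121 and 203 for diestrus, 54 and 110 for proestrus, 76 and 83 for males, 22 and 11 between stages, 117 and 180 between sexes, 181 and 98 for males minus females, and 16 and 30 for diestrus minus proestrus. Regions within 500 bp gave 8 higher in proestrus, 21 lower in males, 1 lower between stages and 46 higher between sexes. Median centring gave 7 higher in proestrus, calls in 15 or more libraries gave 51 lower in males and 3 higher between stages, and regions over 5 kb from a start site gave 1 lower between stages and 68 lower between sexes.

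Same-numbered libraries of a stratum did not deviate together, with correlations of -0.229, 0.00474 and -0.143 for diestrus, 0.149 and 0.0976 for proestrus, and 0.00636 and 0.00525 for males. With the replicate number as a block, proestrus had 1 higher and 8 lower, stages 3 and 1, and the difference in percent called was -8.54 (exact p = 0.156).

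Without 1 library each, limma counts ranged over 0 to 48 higher and 0 to 126 lower in diestrus, 0 to 31 and 6 to 55 in proestrus, 3 to 32 and 7 to 43 in males, 0 to 10 and 0 to 2 between stages, 35 to 81 and 43 to 125 between sexes, 14 to 110 and 11 to 62 for males minus females, and 0 to 0 and 0 to 4 for diestrus minus proestrus. Diestrus gains ranged over 26 to 70 and losses over 46 to 274, proestrus gains over 63 to 139 and losses over 74 to 178, and male gains over 52 to 120 and losses over 379 to 576. Shares ranged from -0.167 to -0.0293 in diestrus, -0.354 to -0.208 in proestrus, 0.146 to 0.210 in males, -0.0916 to -0.0367 over strata and 0.323 to 0.401 for males minus females. The difference in percent called ranged from -12.4 to -7.86, gene-end minus other distal regions from 3.08 to 4.15, and their ranks from 0.0372 to 0.611. Adjusted Fisher calls stayed at 0 to 0.

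Of 917 values of 43 named limma results, 801 kept direction and side of the threshold, 116 lost the call (7 of them under the block, among them Mmp10, Paqr8, Colec10, Wdfy1 and Ubxn10 in proestrus) and 0 reversed. Of 576 values of 24 named gained or lost regions, 549 stayed and 27 moved.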
